A study of Mus musculus with 14 samples.

Results

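The early germ cell specification genes examined here are Prdm1, Prdm14, Tfap2c, Dnd1, Nanos3, Dppa3, Ifitm1 and Ifitm3 of the mouse. They were found as all probes of a bead array whose annotated gene symbol was 1 of these 8, which gave 13 of 25697 probes and 8 of 16593 genes. A probe counts as detected on an array when its detection p-value was under 0.01, and as tested when it was detected on at least 2 arrays. Of the 13 probes 9 were tested, and they cover 7 of the 8 genes, since neither Prdm1 probe was detected on any array. A probe could pass that filter through the cells in which it was bright, so the 9 probes do not stand for all 13.

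The data were signals from 14 single-colour Illumina arrays of C57BL cells, in 8 groups. The hypoxia-induced EGC-like lines hiEGL2 and hiEGL1, with 2 arrays each, are the groups that the labels record as cultured in hypoxia, and hiEGL below is the mean of both lines. Embryonic germ (EG) cells, pluripotent cells grown from primordial germ cells, gave 2 arrays. Primordial germ cells (PGCs) of embryos at 11.5 days post coitum, the group PGC11.5, gave 2 arrays. Epiblast stem cells (EpiSC), the primed pluripotent cells of the implanted embryo, came as the lines EpiT9 and EpiE3 with 1 array each. Embryonic stem cells (ESC), the naive pluripotent cells of the blastocyst, came as female ESCf and male ESCm cells with 2 arrays each. For ESCf and ESCm the cell type field reads embryonic germ cells, but their titles and the design text read embryonic stem cells and were taken as right. The hiEGL, EpiSC and ESC groups each stand for 1 line, so a difference between such groups can be a difference between lines. No label says that replicates were separate cultures or animals. A p-value here thus measures the spread between arrays within groups, pooled over the groups and moderated across probes, which may be technical. EpiT9 and EpiE3, with 1 array each, add nothing to that spread.

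In the mouse embryo, BMP4 from the extraembryonic ectoderm and WNT3 prime a few epiblast cells to become PGCs. The transcriptional regulators PRDM1, PRDM14 and TFAP2C then hold down the somatic programme and restart pluripotency genes, and the RNA-binding proteins DND1 and NANOS3 keep the new germ cells alive. DPPA3, also called Stella, marks the specified cells, and it guards DNA methylation of the maternal genome after fertilisation. Ifitm1 and Ifitm3 encode small interferon-induced membrane proteins that restrict viruses, and Ifitm3, also called Fragilis, marks the epiblast cells from which PGCs arise, although mice without the Ifitm cluster still form germ cells.

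Ifitm1 and Ifitm3 lie close together on chromosome 7, and their promoters are shown because both were higher in hiEGL1 than in EG cells, while in hiEGL2 Ifitm1 passed that test and Ifitm3 did not. Of the 8 genes 4 had an entry in the RefSeq promoter table of build GRCm38.p6, which holds the 250 bases before and 50 after a start site (Prdm1, Nanos3, Ifitm1 and Ifitm3). The Ifitm1 window is chr7:140967826-140968125 on the plus strand and the Ifitm3 window is chr7:141010695-141010994 on the minus strand. Both are written 5′ to 3′ in the direction of the gene, and capitals mark matches to the HIF core (ACGTG or GCGTG) or to the interferon response core (GAAA, any 2 bases and GAAA again), both searched on both strands.
Ifitm1: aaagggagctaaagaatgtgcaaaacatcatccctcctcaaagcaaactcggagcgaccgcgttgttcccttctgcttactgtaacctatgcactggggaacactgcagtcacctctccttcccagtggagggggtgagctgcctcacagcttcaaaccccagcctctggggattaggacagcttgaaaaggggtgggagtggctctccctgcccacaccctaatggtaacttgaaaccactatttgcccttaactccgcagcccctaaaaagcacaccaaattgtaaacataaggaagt
Ifitm3: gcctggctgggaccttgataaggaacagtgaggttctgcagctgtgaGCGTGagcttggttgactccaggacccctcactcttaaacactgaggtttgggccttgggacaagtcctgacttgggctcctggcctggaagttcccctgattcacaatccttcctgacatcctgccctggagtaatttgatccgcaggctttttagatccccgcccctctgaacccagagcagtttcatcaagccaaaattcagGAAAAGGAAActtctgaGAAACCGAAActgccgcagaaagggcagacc
The Ifitm3 window held 1 HIF core, GCGTG at bases 48 to 52, and 2 interferon response cores, at bases 253 to 262 and 270 to 279. The Ifitm1 window held 0 matches to either. Of the 2 windows not shown, that of Prdm1, detected on no array, held 2 HIF cores and 0 interferon response cores. The Nanos3 window held 0 of either. Over 32851 promoter windows of 300 bases, 43.8% held at least 1 HIF core and 3.44% at least 1 interferon response core. These matches are a description of letters in a window.

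Between 29.8% and 45.4% of probes were detected per array, and replicates correlated over all probes at 0.993 to 0.997 except those of PGC11.5, at 0.950, where 1681 tested probes lay at least 2-fold apart against 0 to 28 in the other pairs. The arrays also fell into 2 sets by the probes they detected. The 6 arrays of hiEGL and EG cells differed from the other 8 in 49 probes detected on all 6 and none of the 8, and in 854 probes for which the reverse held. No label names a batch, chip or run behind this split. Since whole groups fall on each side of it, the split and the groups cannot be told apart where hiEGL or EG cells are set against the rest. Of 11 fibroblast and feeder markers with a probe, 10 were detected on at least 1 array in hiEGL2, 9 in hiEGL1 and 5 in EG cells. Their summed normalized intensity was 14586 to 14755 in hiEGL2, 13132 to 13508 in hiEGL1 and 1345 to 1359 in EG cells. The marker Postn was not detected in any of these groups, and Lum was detected among them in hiEGL2 alone. Of 10 gonadal somatic markers 3 (Wt1, Sox9 and Pdgfra) were detected in both hiEGL lines, with sums of 3322 to 3861 against 265 to 285 in EG cells, and none was detected in PGC11.5. Of 9 blood, endothelial and macrophage markers with a probe, the globin genes Hba-a1, Hbb-bh1 and Hbb-y were detected in PGC11.5, with a sum over the list of 50254 in replicate 1 and 2225 in replicate 2, and the other 6 were not. Cdh5, Kdr, Lyz2 and Cd34 of this list were detected in both hiEGL lines, with sums of 739 to 807 against 255 to 257 in EG cells, where Kdr alone was detected, and the globins, Tie1 and Ptprc were not detected in hiEGL or EG cells. Of 8 markers of germ and pluripotent cells, all 8 were detected on at least 1 array in PGC11.5, 7 in EG and ESC, 6 in each EpiSC line and 4 in each hiEGL line. On all arrays of a group the counts were 6 in PGC11.5, 2 in hiEGL2 and 4 in hiEGL1, and EG, ESC and EpiSC kept theirs. Zfp42 (Rex1), Ddx4 and Dazl were not detected in either hiEGL line, nor was Sox2 in hiEGL1 or Lin28a in hiEGL2. The lowest detected log2 signal was 4.86 on EpiT9 and 5.04 on EpiE3, but 5.75 to 6.07 on the hiEGL arrays. Counts of detected markers thus cannot be compared directly between groups. Sox2 counted as detected at 5.51 in EpiT9 and as undetected at 5.72 in hiEGL1. Lin28a, however, averaged 8.24 in EpiT9 and 9.07 in EpiE3 against 5.75 in hiEGL2.

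**Figure D1:**
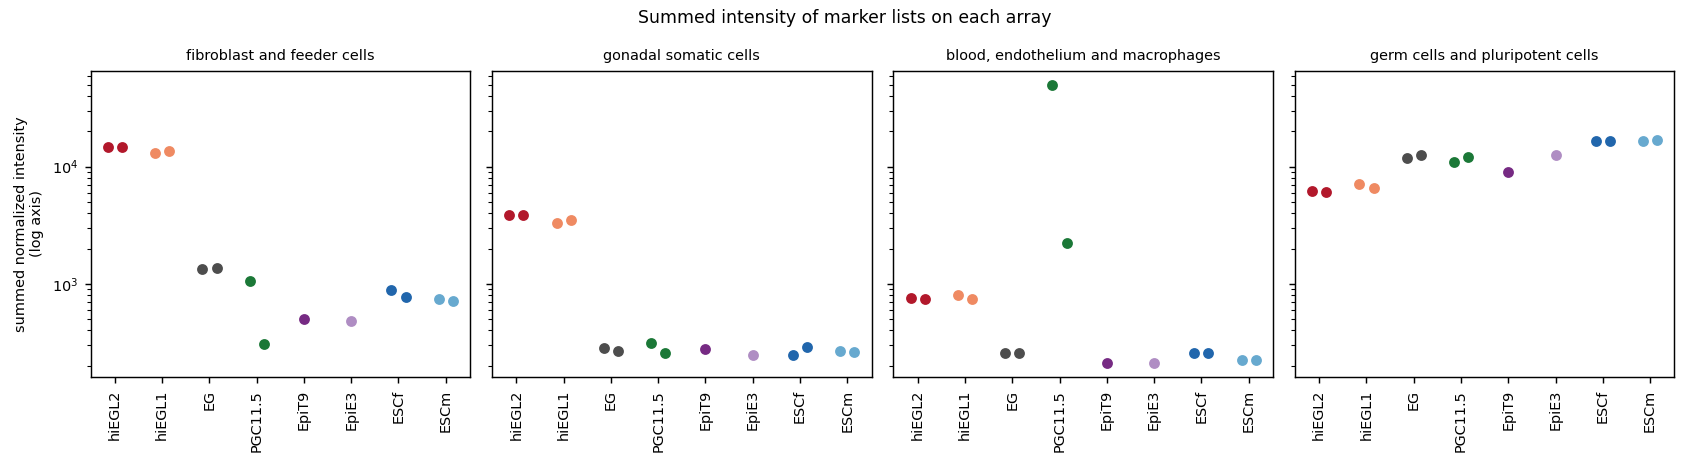
Summed normalized intensity of marker lists on each array, on a log axis, by group. Points are arrays. Fibroblast and feeder markers sum to 13132 or more on the hiEGL arrays and to 1359 or less on the other arrays.

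The marker sums are given because arrays of whole cultures cannot tell fewer cells of a type from less RNA per cell. The part of the fibroblast, gonadal and blood markers in the results for the 8 genes was not tested.

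Compared with EG cells, the hypoxia-induced lines had more signal from Dnd1, Dppa3, Ifitm1 and the brightest Tfap2c probe in both lines, by 4.58-fold for Ifitm1 and 5.71-fold for Dnd1 over both lines. Nanos3 and Ifitm3 were higher in hiEGL1 than in EG cells, and in hiEGL2 neither passed the test against EG. Prdm1 was not detected in any group, and Prdm14 was not detected in hiEGL or EG cells. PGC11.5 had the highest Dppa3, Dnd1 and Nanos3 of the 8 groups. The EpiSC lines had the lowest Tfap2c on all 3 of its probes.

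**Figure D2:**
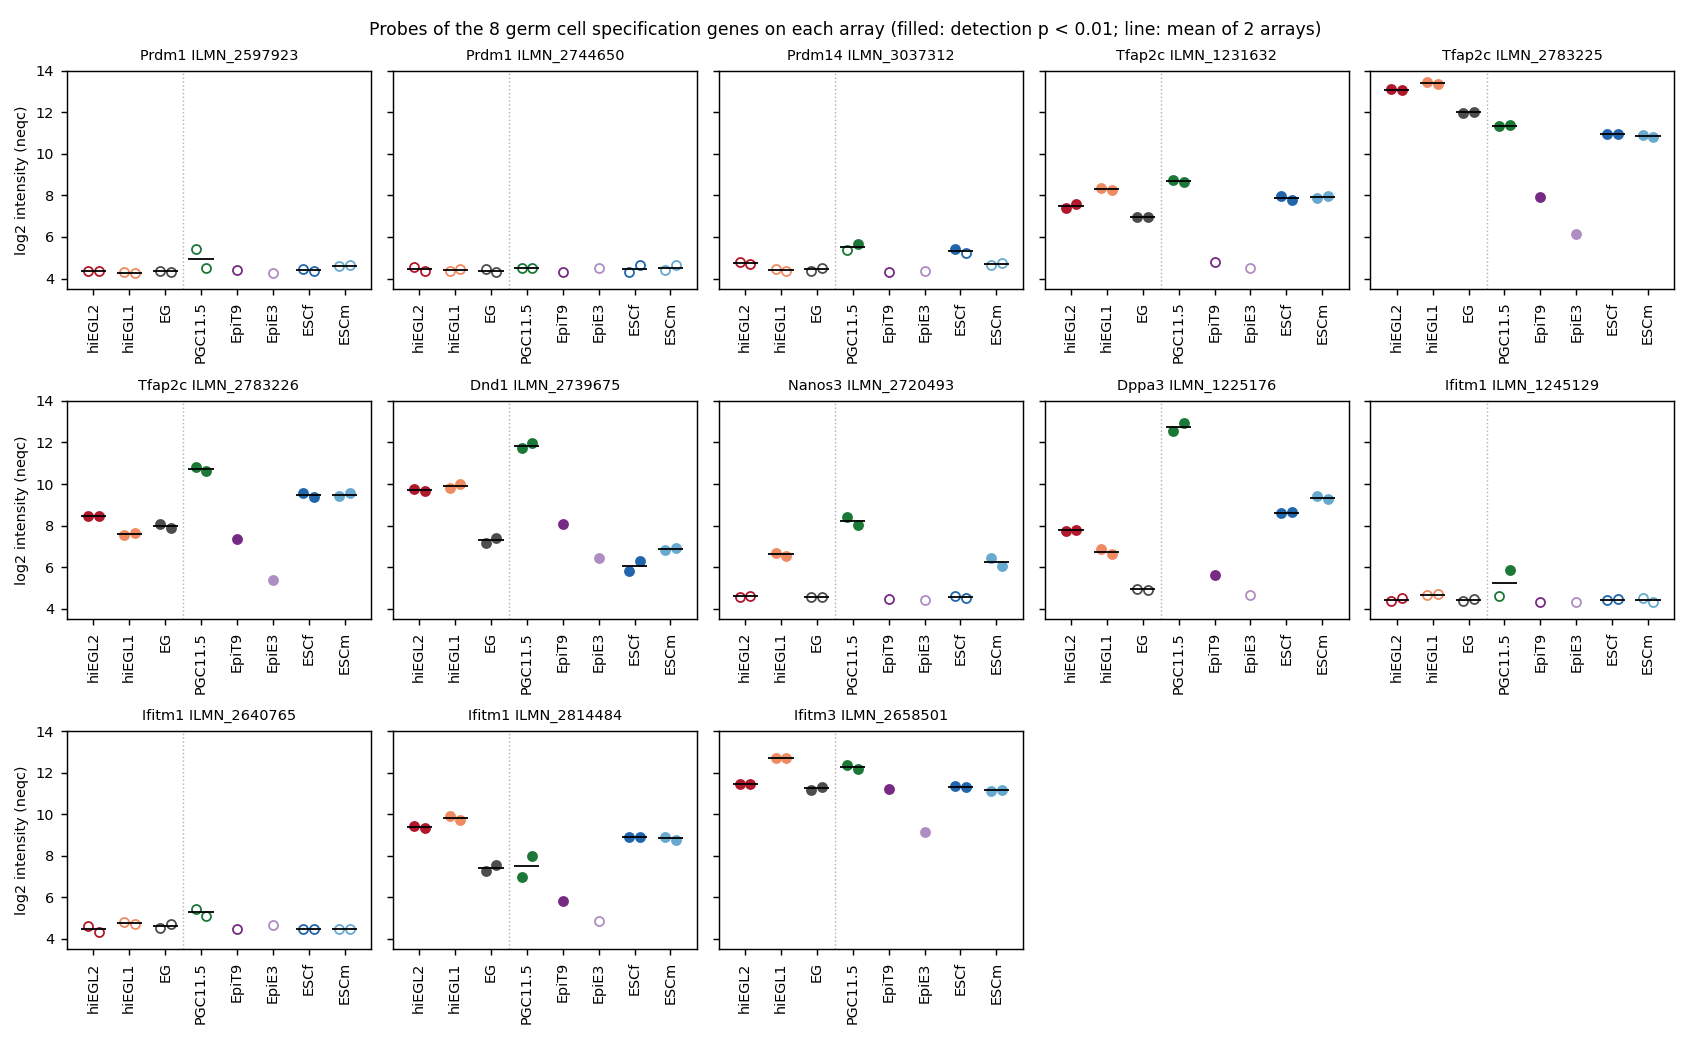
Normalized log2 signal of each of the 13 probes on each of the 14 arrays, by group, with detected and undetected arrays marked apart. The 2 PGC11.5 arrays sit at 12.54 and 12.91 for Dppa3, above every other array, and the Nanos3 probe is detected in hiEGL1, PGC11.5 and ESCm.

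Among the transcriptional regulators, Prdm1, the repressor that begins the germ cell programme, had log2 signals of 4.25 to 5.40 on its probe ILMN_2597923 and of 4.30 to 4.64 on ILMN_2744650. All these values were at background, so they give no order of the groups.

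Prdm14, a regulator needed to establish PGCs and to hold naive pluripotency, had log2 signals of 4.78 and 4.71 in hiEGL2, 4.46 and 4.35 in hiEGL1 and 4.36 and 4.53 in EG. It had 5.36 and 5.69 in PGC11.5, 4.31 in EpiT9, 4.36 in EpiE3, 5.42 and 5.24 in ESCf and 4.67 and 4.74 in ESCm. The probe was detected on 2 of 14 arrays, PGC11.5 replicate 2 and ESCf replicate 1, so most of its values are at background. It passed the filter through these 2 arrays, so calls of it as higher in PGC11.5 or ESCf are not free of that filter. PGC11.5 and ESCf had the highest values and overlapped, with 1 array of each not detecting the probe. The lowest detected signals of the hiEGL2 arrays, 6.07 and 6.01, lay above the PGC11.5 values. These values therefore give no order of the groups.

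Tfap2c, which encodes the transcription factor AP-2 gamma, had 3 tested probes. Probe ILMN_2783225 had 13.10 and 13.08 in hiEGL2, 13.46 and 13.35 in hiEGL1 and 11.96 and 12.03 in EG. It had 11.34 and 11.37 in PGC11.5, 7.90 in EpiT9, 6.12 in EpiE3, 10.93 and 10.97 in ESCf and 10.88 and 10.82 in ESCm. Groups did not overlap on this probe, and it was detected on all 14 arrays.

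Probe ILMN_1231632 had 7.41 and 7.57 in hiEGL2, 8.35 and 8.28 in hiEGL1 and 6.95 and 6.95 in EG. It had 8.75 and 8.64 in PGC11.5, 4.79 in EpiT9, 4.50 in EpiE3, 7.96 and 7.79 in ESCf and 7.88 and 7.98 in ESCm. The EpiSC arrays were the only ones below detection, and the ESC lines overlapped. Probe ILMN_2783226 had 8.45 and 8.48 in hiEGL2, 7.54 and 7.65 in hiEGL1 and 8.09 and 7.87 in EG. It had 10.82 and 10.63 in PGC11.5, 7.37 in EpiT9, 5.40 in EpiE3, 9.59 and 9.36 in ESCf and 9.42 and 9.57 in ESCm. On this probe hiEGL1 lay below EG, whereas on the other 2 it lay above, so the 3 probes do not give Tfap2c 1 order of groups.

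Of the RNA-binding genes, Dnd1 had 9.77 and 9.65 in hiEGL2, 9.79 and 10.00 in hiEGL1 and 7.17 and 7.41 in EG. It had 11.71 and 11.97 in PGC11.5, 8.06 in EpiT9, 6.47 in EpiE3, 5.80 and 6.28 in ESCf and 6.84 and 6.93 in ESCm. Its order was PGC11.5, then the hiEGL lines, then EpiT9, EG, ESCm, EpiE3 and ESCf, with no overlap of neighbours, though the difference between the hiEGL lines did not pass the test below. Every array detected Dnd1.

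Nanos3, whose protein keeps migrating PGCs from apoptosis, had 4.57 and 4.62 in hiEGL2, 6.66 and 6.56 in hiEGL1 and 4.58 and 4.59 in EG. It had 8.40 and 8.04 in PGC11.5, 4.45 in EpiT9, 4.43 in EpiE3, 4.59 and 4.53 in ESCf and 6.43 and 6.07 in ESCm. The probe was detected on all 6 arrays of hiEGL1, PGC11.5 and ESCm and on none of the other 8. Within each pair of lines of 1 kind, hiEGL and ESC, it was thus detected in 1 line and not in the other.

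Dppa3 had 7.74 and 7.81 in hiEGL2, 6.85 and 6.64 in hiEGL1 and 4.96 and 4.92, not detected, in EG. It had 12.54 and 12.91 in PGC11.5, 5.62 in EpiT9, 4.68 in EpiE3, 8.61 and 8.65 in ESCf and 9.43 and 9.27 in ESCm. EpiE3 and EG were the groups without detection. PGC11.5 lay 3.38 log2 units above ESCm, the next group.

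Ifitm1 had 9.42 and 9.34 in hiEGL2, 9.91 and 9.72 in hiEGL1 and 7.27 and 7.54 in EG on probe ILMN_2814484. It had 6.97 and 8.01 in PGC11.5, 5.83 in EpiT9, 4.87 in EpiE3, 8.90 and 8.89 in ESCf and 8.90 and 8.77 in ESCm. PGC11.5 replicates stood 1.04 apart and overlapped EG, and EpiE3 was the only array without detection. Of the other 2 Ifitm1 probes, ILMN_1245129 was detected on 1 array, PGC11.5 replicate 2, at 5.85, and ILMN_2640765 on none.

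Ifitm3 had 11.43 and 11.45 in hiEGL2, 12.69 and 12.70 in hiEGL1 and 11.18 and 11.31 in EG. It had 12.35 and 12.15 in PGC11.5, 11.23 in EpiT9, 9.14 in EpiE3, 11.35 and 11.29 in ESCf and 11.13 and 11.18 in ESCm. All arrays detected it, hiEGL1 was highest and EpiE3 lowest. ESCf overlapped EG, and EpiT9 lay within the range of the EG arrays.

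The series asked about germ cells brought to pluripotency in hypoxia, so the hiEGL lines were set against EG cells with limma over all 12404 tested probes, adjusted by Benjamini and Hochberg, with a call at an adjusted p under 0.05. Of the 9 probes 7 were higher in hiEGL and 0 lower, where 24.9% of all tested probes were called higher and 30.7% lower. The median difference was 1.02 log2 over the 9 and -0.036 over all tested probes. With arrays scaled to 1 median in place of the quantile step, 64.6% of called probes were the higher ones, against 44.8% with the quantile step. The 9 probes kept their directions, also relative to the shift of 0.46 of all probes at the median, except Tfap2c ILMN_2783226, which stood at -0.23 relative to it.

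Dnd1 was 2.51 ± 0.15 (SE) log2 higher in hiEGL, or 5.71-fold (adjusted p = 2.07e-07). Dppa3 was at least 2.71-fold higher (adjusted p = 9.77e-08), a bound because EG cells did not detect it. Ifitm1 was 2.19 ± 0.23 higher, or 4.58-fold (adjusted p = 1.38e-05). Each of these 3 genes was higher in both lines. They did not overlap between hiEGL and EG arrays, but nor did Ifitm3 and Tfap2c ILMN_2783225 and ILMN_1231632. Lack of overlap thus does not set them apart, and no share over all tested probes is given for it.

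For Tfap2c, probe ILMN_2783225 was 1.25 higher in hiEGL (adjusted p = 4.01e-08) and ILMN_1231632 0.95 higher (adjusted p = 2.14e-05), while ILMN_2783226 differed by 0.05 (adjusted p = 0.745), since it went opposite ways in the lines. Ifitm3 was 0.82 higher, or 1.77-fold (adjusted p = 2.33e-06). Nanos3 was called higher (adjusted p = 2.21e-04), with 2 of the 4 hiEGL arrays and no EG array detecting it and with overlap between the groups, so its size is given by line below. Prdm14 differed by 0.13 (adjusted p = 0.442) and was not detected in either group. With the line as a random block, Nanos3 (adjusted p = 0.304) and Ifitm3 (adjusted p = 0.301) no longer passed. The hiEGL arrays also had higher sums of the fibroblast, gonadal and blood, endothelial and macrophage markers than EG. Lyz2, a macrophage marker, averaged 7.72 log2 in hiEGL2 and 8.31 in hiEGL1 against 5.09 in EG, where it was not detected. Ptprc of the same list was not detected in hiEGL or EG, and ESCm and ESCf detected Lyz2 too, at 5.42 and 6.29.

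**Figure D3:**
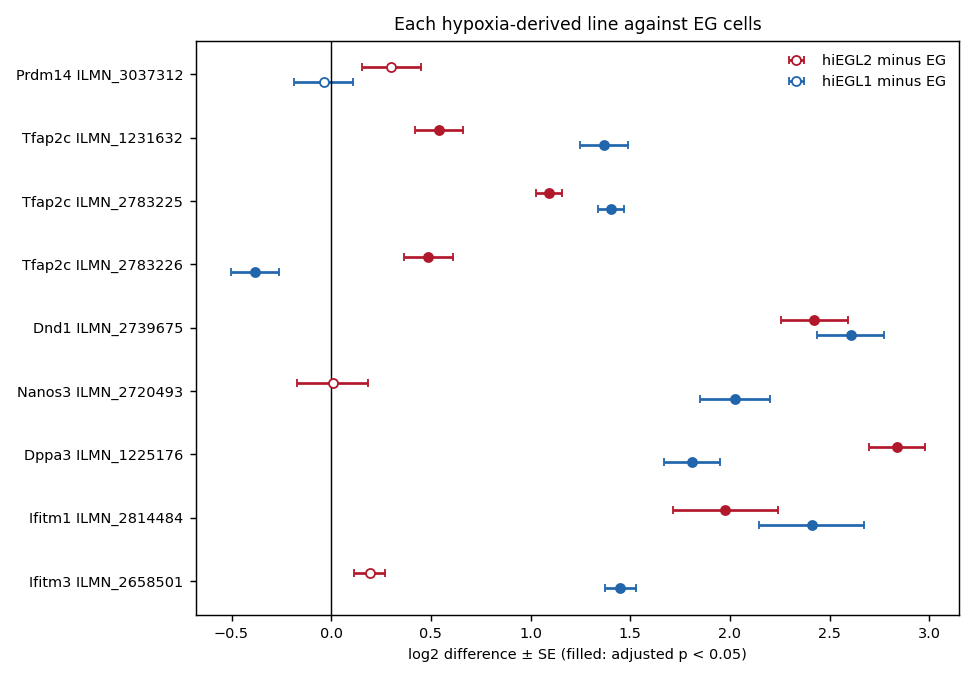
Log2 difference of each line from EG with its SE for the 9 tested probes, hiEGL2 in red and hiEGL1 in blue, filled where the adjusted p is under 0.05. Tfap2c ILMN_2783226 sits at 0.49 in hiEGL2 and -0.38 in hiEGL1. EG did not detect Nanos3 or Dppa3, so their points are fitted differences from background, and the bounds in the text stand for their size.

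Line by line, 6 of the 9 probes were higher and 0 lower in hiEGL2 than in EG, where 23.1% and 29.9% of all tested probes were called, and in hiEGL1 7 were higher and 1 lower, against 24.6% and 28.1% of all tested probes. Dnd1 was 2.42 higher in hiEGL2 and 2.61 in hiEGL1. Dppa3 was at least 3.88-fold higher in hiEGL2 and at least 1.90-fold in hiEGL1. Ifitm1 was 1.98 higher in hiEGL2 and 2.41 in hiEGL1. Thus Dnd1, Dppa3 and Ifitm1 passed in each line. So did Tfap2c ILMN_2783225, higher by 1.09 in hiEGL2 and 1.41 in hiEGL1, and ILMN_1231632, by 0.54 and 1.37.

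Nanos3 was detected in neither hiEGL2 nor EG (adjusted p = 0.984) and was at least 1.73-fold higher in hiEGL1 (adjusted p = 4.92e-06). Ifitm3 differed by 0.19 in hiEGL2 (adjusted p = 0.0583) and was 1.45 higher in hiEGL1 (adjusted p = 1.64e-07). Tfap2c ILMN_2783226 was 0.49 higher in hiEGL2 (adjusted p = 0.00644) and 0.38 lower in hiEGL1 (-0.38, adjusted p = 0.0225). These contrasts share the EG arrays, so the lines were also compared directly.

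Between the hypoxia-induced lines, hiEGL2 had more Dppa3 and less Ifitm3 and Nanos3 than hiEGL1. Of the 9 probes 2 were higher and 4 lower, where 12% and 13.5% of all tested probes were called. Dppa3 was 1.03 higher in hiEGL2 (adjusted p = 5.14e-04). Ifitm3 differed by -1.26 (adjusted p = 8.79e-06), which is 2.39-fold lower in hiEGL2. Nanos3 was at least 1.49-fold lower (adjusted p = 4.31e-05), with detection on 0 of 2 hiEGL2 and 2 of 2 hiEGL1 arrays.

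The Tfap2c probes split, with ILMN_1231632 at -0.83 (adjusted p = 8.23e-04), ILMN_2783225 at -0.31 (adjusted p = 0.00562) and ILMN_2783226 at 0.87 (adjusted p = 6.38e-04). Dnd1 at -0.18 (adjusted p = 0.523), Ifitm1 at -0.43 (adjusted p = 0.285) and Prdm14 at 0.34 (adjusted p = 0.129) did not pass. A fit to the arrays of these lines alone called Ifitm1 (adjusted p = 0.00146) and Prdm14 (adjusted p = 0.0265), although no array of either line detected Prdm14. Tfap2c ILMN_2783225 stood at -0.26 without hiEGL1 replicate 1. Under median scaling all probes shifted by 0.40 at the median. There ILMN_2783225 was not called (adjusted p = 0.0940), at -0.20, which is -0.61 relative to that shift. Ifitm1 was called there (adjusted p = 0.0435), at -0.47, or -0.87 relative to the shift. The fitted Nanos3 difference was -0.83 in place of -2.02.

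PGC11.5 and ESC, both among the other 8 arrays, were compared to see how germ cells of the embryo differ from naive pluripotent cells. Of the 9 probes 8 were higher in PGC11.5 and 1 lower, where 34.2% and 34.4% of all tested probes were called. The 8 include Prdm14, whose call was not free of the filter. Dnd1 was 5.38 ± 0.15 (SE) log2 higher, or 41.6-fold (adjusted p = 1.47e-09). Dppa3 was 3.74 higher, or 13.3-fold (adjusted p = 3.90e-09). Nanos3 was called higher (adjusted p = 1.08e-07), by 3.92-fold over ESCm and at least 8.04-fold over ESCf, which did not detect it. No PGC11.5 array overlapped an ESC array for these genes, nor for the Tfap2c probes, Ifitm1 or Ifitm3. This does not set them apart, and no share over all tested probes is given for it, so it is not read as a result.

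The lesser differences were 0.79, 0.45 and 1.24 for Tfap2c probes ILMN_1231632, ILMN_2783225 and ILMN_2783226, 1.01 for Ifitm3 and 0.50 for Prdm14, for which 1 of 2 PGC11.5 and 1 of 4 ESC arrays detected the probe. Ifitm1 went the other way at -1.38 (adjusted p = 3.20e-04), with a value of -0.86 without PGC11.5 replicate 1 and -1.90 without replicate 2, while its probe ILMN_1245129 was detected on PGC11.5 replicate 2 alone. With the line as a random block, Tfap2c ILMN_2783225 (adjusted p = 0.391) and ILMN_2783226 (0.0591), Ifitm3 (0.149) and Prdm14 (0.178) did not pass. Under median scaling all probes shifted by 0.81 at the median. Tfap2c ILMN_1231632 and ILMN_2783225 were still called higher there, at 0.73 and 0.24, which is -0.08 and -0.56 relative to that shift. Ifitm3 stood at 0.89 and Tfap2c ILMN_2783226 at 1.07, which is only 0.08 and 0.26 relative to it. Dnd1, Dppa3, Nanos3 and Prdm14 stood at 1.07 to 4.43 relative to it, and Ifitm1 at -1.95.

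Against EpiSC, every one of the 9 probes was called higher in PGC11.5, where 26.4% of all tested probes were called higher and 31% lower. That count includes Prdm14, which is set apart below. Dnd1 was 4.58 log2 higher. Dppa3 was 7.11 higher than in EpiT9 alone, which detected it, whereas EpiE3 did not. Tfap2c was at least 13.4-fold higher on ILMN_1231632 and 4.34 log2 higher on each of the other 2 probes, and Nanos3 was at least 9.67-fold higher. Ifitm3 was 2.07 higher and Ifitm1 2.14, with EpiE3 not detecting Ifitm1. Prdm14 was called higher, but only 1 of 2 PGC11.5 arrays and no EpiSC array detected it, so no size is given. Prdm14 passed the filter through that array and ESCf replicate 1 alone, so its place among the 9 was not free of the filter. A fit to these 4 arrays alone lost Ifitm1 (adjusted p = 0.0805) and Prdm14 (adjusted p = 0.0625).

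**Figure D4:**
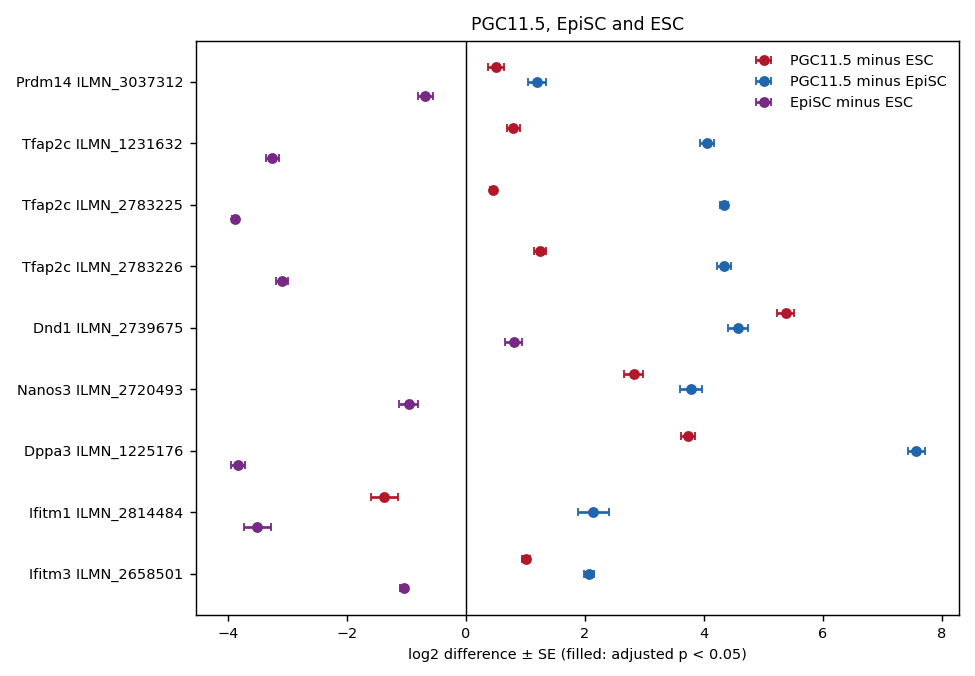
Log2 difference with its SE for the 9 tested probes in PGC11.5 against ESC (red), PGC11.5 against EpiSC (blue) and EpiSC against ESC (purple), all filled, since each adjusted p is under 0.05. Dnd1 and Dppa3 in PGC11.5 against ESC stand at 5.38 and 3.74, and the Tfap2c probes in EpiSC against ESC at -3.89 to -3.10. Where a group did not detect a probe its point is a fitted difference from background.

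Set against the same ESC arrays, EpiSC had less Tfap2c, Dppa3 and Ifitm1. Of the 9 probes 1 was higher in EpiSC and 8 lower, where 34% and 28.4% of all tested probes were called. Tfap2c was at least 7.75-fold lower on ILMN_1231632 and differed by -3.89 on ILMN_2783225 and -3.10 on ILMN_2783226. Against EpiT9 alone, which detected both while EpiE3 did not, Dppa3 differed by -3.37 and Ifitm1 by -3.04. Nanos3 and Prdm14 were called lower, with no EpiSC array and only 2 of 4 and 1 of 4 ESC arrays detecting them, so no size is given. For Nanos3 the detecting arrays were those of ESCm, whereas ESCf, at 4.56, did not detect it and EpiSC stood at 4.44. Dnd1 was the one higher, by 0.80 (adjusted p = 7.59e-04), and for Dnd1 and Ifitm3 the EpiSC arrays overlapped those of ESC.

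The EpiSC lines stood apart on several probes. In EpiT9 against EpiE3, 4 of the 9 probes were at least 2-fold higher and 0 lower, where 3.25% and 2.31% of all tested probes were, with 1 array each and so no test. Ifitm3 was 4.25-fold higher in EpiT9, Tfap2c 3.93-fold on ILMN_2783226 and 3.43-fold on ILMN_2783225, and Dnd1 3.02-fold. Accordingly, Dnd1 differed from ESC by 0.0034 without EpiT9 (adjusted p = 0.990), and Ifitm3 by -0.0092 without EpiE3 (adjusted p = 0.939) in place of -1.05. With the line as a random block Dnd1 (adjusted p = 0.138), Ifitm3 (0.0907) and Nanos3 (0.210) did not pass.

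Female ESCf had less Nanos3, Dnd1 and Dppa3 than male ESCm. Of the 9 probes 1 was higher and 3 lower, where 8.7% and 8.66% of all tested probes were called. Nanos3 was at least 2.05-fold lower in ESCf (adjusted p = 2.08e-04). Dnd1 differed by -0.85 (adjusted p = 0.00733) and Dppa3 by -0.72 (adjusted p = 0.00635). Prdm14 was called higher in ESCf (adjusted p = 0.0174), but only 1 of 2 ESCf arrays and no ESCm array detected it, so no size is given. The ESCf array was 1 of the 2 through which the probe passed the filter, so this call was not free of it. Only Nanos3 kept its call in each of the 4 fits that left out 1 array. Sex and culture cannot be told apart, since each sex has 1 group.

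Comparisons of the hiEGL lines or EG cells with PGC11.5 or ESC run across the split of the arrays described above. In hiEGL against PGC11.5, 2 of the 9 probes were higher and 7 lower, where 39.9% and 36.8% of all tested probes were called. Dppa3 was 44.1-fold lower in hiEGL, at -5.46 log2, and Dnd1 differed by -2.04. Nanos3 was called lower, with 2 of 4 hiEGL arrays detecting it. Tfap2c differed by -0.79, 1.89 and -2.70 on ILMN_1231632, ILMN_2783225 and ILMN_2783226, and Ifitm1 was 2.11 higher. Ifitm3 differed by -0.19 (adjusted p = 0.0267), it did not pass without PGC11.5 replicate 1 (adjusted p = 0.287) or with a random block for line (adjusted p = 0.799), and it stood at 0.17 relative to the shift of all probes under median scaling.

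In EG against PGC11.5, 1 probe was higher and 7 lower, where 39.2% and 32.6% of all tested probes were called. Dppa3 was at least 120-fold lower in EG and Nanos3 at least 5.28-fold lower, and Dnd1 differed by -4.55. The Tfap2c probes stood at -1.75, 0.64 and -2.75 in the same order, and Ifitm3 at -1.01. With a random block for line, ILMN_2783225 (adjusted p = 0.269), the one higher probe, and Ifitm3 (0.200) did not pass. Ifitm1 differed by -0.08 (adjusted p = 0.787), which was 0.44 without PGC11.5 replicate 2 and -0.61 without replicate 1, so that 1 array decides its direction. Under median scaling all probes shifted by -0.94 at the median, and Ifitm3 stood at -0.30 relative to that shift. Ifitm1 was called lower there, at -0.60 (adjusted p = 0.00319), which is 0.33 relative to the shift.

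In hiEGL against ESC, 4 probes were higher and 3 lower, where 39.4% and 43.9% of all tested probes were called. Dnd1 was 3.34 higher in hiEGL, Ifitm1 0.73 and Ifitm3 0.83, whereas Dppa3 differed by -1.73. With a random block for line, Ifitm1 (adjusted p = 0.0947), Ifitm3 (0.110) and Prdm14 (0.109) did not pass. In EG against ESC, 2 were higher and 6 lower, where 37.7% and 34.6% of all tested probes were called. Dppa3 was at least 8.98-fold lower in EG, Ifitm1 differed by -1.46 and Dnd1 by 0.83, and Dnd1 (adjusted p = 0.165), Nanos3 (0.339) and Prdm14 (0.116) did not pass with that block. In both comparisons Tfap2c ILMN_2783225 was higher (2.35 in hiEGL, 1.10 in EG) and ILMN_2783226 lower (-1.45 and -1.51), so no direction is given for Tfap2c across the split.

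The signals that induce germ cells in the epiblast, 11 of 16 listed genes tested by their brightest probe, were 3 higher and 6 lower in hiEGL than in EG, where 28.1% of all 9081 genes, taken by their brightest tested probe as in all lists here, were called higher and 33% lower. The list's median was -0.63 log2, against -0.036 over all tested probes. Among them Wnt3a was at least 1.14-fold lower in hiEGL, Acvr1, a BMP receptor, was 1.37 higher and Smad5, a BMP signal transducer, was 1.08 higher. Eomes, a T-box factor, was called lower, but neither group detected it. Bmp4 itself was 0.79 higher (adjusted p = 7.34e-05). In PGC11.5 against ESC the list had 3 higher and 6 lower, where 33.9% and 34.6% of all genes were called. In EpiSC against ESC it had 5 higher and 3 lower, where 34.6% and 28.4% were, with Bmp4 at -2.41 and 1 of 2 EpiSC arrays detecting it.

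Of the genes that work with the members or keep PGCs alive, 16 of 21 were tested, and 3 were higher and 8 lower in hiEGL than in EG, against the same 28.1% and 33% of all genes, with a median of -0.31. Cxcl12, the chemokine that guides PGCs and that fibroblasts also make, was 2.57 higher in hiEGL. Lin28a, an RNA-binding protein that blocks let-7, differed by -1.27 with 2 of 4 hiEGL arrays detecting it, Prmt5, an arginine methyltransferase that partners PRDM1, by -1.20, and Ehmt1, a histone methyltransferase, by -0.95. In PGC11.5 against ESC 4 were higher and 8 lower (33.9% and 34.6% of all genes). Elavl2, an RNA-binding protein, was 2.91 higher in PGC11.5. Cxcr4, the receptor of CXCL12, was called higher with 1 of 2 PGC11.5 arrays detecting it, so no size is given. Lin28a differed by -4.76 with 1 of 2 PGC11.5 arrays detecting it, and Itga6, an integrin, was at least 2.25-fold lower. In EpiSC against ESC 4 were higher and 9 lower (34.6% and 28.4% of all genes), and Tcl1, a co-activator of AKT, was at least 32.9-fold lower in EpiSC.

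Of the somatic genes that PRDM1 and its partners hold down, 7 of 12 were tested and 3 were higher and 0 lower in hiEGL than in EG, where 28.1% and 33% of all genes were called. Snai1, a regulator of epithelial to mesenchymal transition, was at least 4.48-fold higher, the caudal homeobox gene Cdx2 at least 2.80-fold and Hoxb2 at least 2.69-fold. In PGC11.5 against ESC, where 33.9% and 34.6% of all genes were called, 2 were higher (Cdx2 by 1.96 and Evx1 by 1.85, with 3 of 4 ESC arrays detecting Evx1) and 2 lower. These were Cdx1, at -2.76 with 1 of 2 PGC11.5 arrays detecting it, and Snai1, at least 1.04-fold lower. In EpiSC against ESC, where 34.6% and 28.4% were called, 3 were higher, Fgf8 by at least 18.8-fold, and 2 lower, Cdx1 by at least 6.90-fold. The fibroblast markers given above moved with Snai1 and Hoxb2 in hiEGL, and their part was not tested.

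Since Ifitm1 and Ifitm3 respond to interferon, other interferon-induced genes were counted, 9 of 17 tested. In hiEGL against EG 5 were higher and 3 lower, where 28.1% and 33% of all genes were called, with a median of 0.60. Ifitm2, the neighbour of Ifitm1 and Ifitm3, was 1.41 higher (adjusted p = 4.66e-08), Ifi27 1.01 and Ifit3 1.06 with 3 of 4 hiEGL and 1 of 2 EG arrays detecting it, while Stat2, a transducer of the interferon signal, differed by -0.74. In hiEGL2 against hiEGL1, 1 was higher and 2 lower, where 13.5% and 15.3% of all genes were called. Ifitm2 differed by -0.78 (adjusted p = 7.58e-05), the direction of Ifitm3, while Ifit3 was 1.70 higher (adjusted p = 0.00176, with 1 of 2 hiEGL1 arrays detecting it) and Usp18 at least 2.01-fold lower. In PGC11.5 against ESC 3 were higher, Ifi27 by 3.57 with 3 of 4 ESC arrays detecting it, and 0 lower, where 33.9% and 34.6% of all genes were called.

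The genes whose pattern over the 14 arrays was most like that of a member were found by Pearson's r over tested probes, as a description, since all probes share the same arrays, lines and the split of the arrays. For the brightest Tfap2c probe these were Bmp4 (r = 0.971), Lima1 (0.965) and Ogt (0.956). For Dnd1 they were Dnaaf3 (0.971), Atp10a (0.967) and Oaz2 (0.960), and for Nanos3 Adgrl1 (0.925), Gps1 (0.909) and Agfg2 (0.908). Dppa3 was most like Pecam1 (0.949), a surface protein of endothelium and of naive pluripotent and germ cells, then Tle1 (0.933) and Atm (0.926). Ifitm1 was most like Rps14 (0.936) and both probes of Porcn (0.935 and 0.926), Ifitm3 like Ccnd3 (0.823), Pip4k2c (0.812) and Fam20b (0.807), and Prdm14, mostly undetected, like Stard8 (0.956). After the mean of each set of arrays was subtracted, these stood at 0.945 for Bmp4, 0.971 for Dnaaf3, 0.928 for Adgrl1, 0.938 for Pecam1, 0.921 for Rps14 and 0.810 for Ccnd3.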

How the data were processed

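Signals of 25697 probes on 14 arrays were used. Per the file headers, 1 deposited table gives each probe an unlogged intensity and a detection p-value on each array. Another deposited table gives the authors' normalized values on the log2 scale, and only an alternative drew on it. The submitters' processing notes name lumi, RMA and BeadStudio 3.2. Per the labels, 300 ng of RNA per sample was transcribed in vitro for 18 h and amplified again for 12 h. The genome build of the probes is not given in the sources used here.

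Genes were named from the platform's annotation, 23978 probes with 1 gene, 0 with several and 1719 with none. With limma 3.58.1 (neqc, R 4.3.3), intensities were background-corrected from the detection p-values, given an offset of 16, quantile normalized and log2 transformed. The 12404 probes with 1 gene that were detected (p under 0.01) on 2 or more arrays were fitted with a mean for each of 8 groups and variances moderated with a trend (6 residual degrees of freedom, 9.88 in total). The 10 comparisons were adjusted by Benjamini and Hochberg at 0.05. hiEGL, EpiSC and ESC are means of 2 lines. Where only 1 group detected a probe, "at least" gives the bright group's mean over the other's mean of the higher of each array's lowest detected signal and the probe's own. No bound is given for a member where part of the bright group did not detect it. The number of arrays limits the precision. The text names every member probe, of each list up to 4 called genes with the largest difference per comparison, and the 3 most alike probes of a member. Members and lists were chosen with earlier results of these data known. The procedure was tested on simulated data. The promoter search and figures used matplotlib 3.10.9, pandas 2.3.3, numpy 2.4.6 and Python 3.11.15. The alternatives tried were median scaling, no background correction, the authors' own values, no filter, detection on every array of a group, genes by their brightest probe, a random block for the line, a block for the replicate number, fits to only the compared arrays and fits without each array in turn.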

Additional observations from a re-analysis of the deposited data

Results flagged for a closer look

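Results below are differences between 2 lines of the same kind that passed limma's test of the difference itself, given on the log2 scale with adjusted p-values over all 12404 tested probes. In hiEGL2 against hiEGL1, Ifitm3 differed by -1.26 (8.79e-06) and Dppa3 by 1.03 (5.14e-04). Nanos3 had a fitted difference of -2.02 (4.31e-05), but hiEGL2 did not detect it, so the data bound it at least 1.49-fold lower in hiEGL2. The 3 Tfap2c probes differed too, ILMN_1231632 by -0.83 (8.23e-04), ILMN_2783225 by -0.31 (0.00562) and ILMN_2783226 by 0.87 (6.38e-04), so that the probes of this gene order the lines in opposite ways. In ESCf against ESCm, Dnd1 differed by -0.85 (0.00733) and Dppa3 by -0.72 (0.00635). Nanos3, not detected in ESCf, had a fitted difference of -1.69 (2.08e-04) and was at least 2.05-fold lower in ESCf. Prdm14, detected on 1 of 2 ESCf arrays and no ESCm array, had a fitted difference of 0.62 (0.0174), which rests mostly on background values and gives no size. The ESCf array was 1 of the 2 through which this probe passed the filter.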

How the results depend on the processing

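Of the 10 counts of called probes, 6 stayed within 1.5 times their value in every alternative that could be fitted, and the exceptions follow. With the line as a random block (correlation 0.588), the count was 5 in place of 9 for PGC11.5 against ESC, 5 in place of 8 for EG against ESC and 4 in place of 7 for hiEGL against ESC. Leaving out 1 array gave 2 to 4 calls for ESCf against ESCm, where all arrays gave 4, with 2 each without ESCm replicate 1, ESCm replicate 2 or ESCf replicate 1. In the alternatives run, directions turned for the following differences, all within 0.1 of 0 with all arrays except that of Prdm14, a probe mostly at background. In EG against ESC, Ifitm3 stood at -0.35 under median scaling, and between -0.056 and 0.064 when 1 array was left out, below 0 without EG replicate 2, ESCm replicate 1 (-0.0092) or ESCf replicate 2 (-0.011). In EG against PGC11.5, Ifitm1 stood between -0.61 (without PGC11.5 replicate 1) and 0.44 (without PGC11.5 replicate 2), and at 0.049 without EG replicate 1. In hiEGL against ESC, Prdm14 stood at 0.58 under median scaling, and Tfap2c ILMN_1231632 at -5.32e-04 in the authors' values, -0.042 under median scaling and between -0.041 and 0.042 when 1 array was left out. In ESCf against ESCm, Tfap2c ILMN_1231632 stood between -0.14 and 0.025 when 1 array was left out, and ILMN_2783226 between -0.14 and 0.091 and, under median scaling, at 0.0021. In hiEGL against EG, Tfap2c ILMN_2783226 stood between -0.057 (without EG replicate 2) and 0.16. The cause was not tested. Under median scaling the share of called probes that were higher was 68.4% in hiEGL2 against hiEGL1, where the quantile step gave 47.0%. The same shares were 75.8% against 49.9% in PGC11.5 against ESC, 77.1% against 46.0% in PGC11.5 against EpiSC, 24.8% against 54.6% in EG against PGC11.5, 31.1% against 52.0% in hiEGL against PGC11.5, 57.8% against 47.2% in hiEGL against ESC and 60.5% against 50.1% in ESCf against ESCm. Replicate numbers were shared between groups, but deviations from the group means of same-numbered arrays correlated at -0.027 to 0.022 over 15 pairs of groups, so they are only numbers. With the replicate number as a block the counts were as without it in the 8 comparisons that have one, for example 7 in hiEGL against EG and 9 in PGC11.5 against ESC, and no call of a single probe changed. Each group has at most 2 arrays, and values of undetected probes lie at background.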
